A study of Homo sapiens with 12 samples.

Results

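Drug-tolerant persister markers were followed in PC9, a line of human lung adenocarcinoma which carries a mutated EGFR and responds to EGFR inhibitors, of which gefitinib is one. The set held 9 genes: KDM5A, KDM5B, KDM6B, CD24, CD44, PROM1, ALDH1A1, ALDH1A3 and GPX4. They were picked as genes known in that state, by a choice made with earlier results of these data known. A probe of the Illumina bead array was assigned to one of them where its annotated gene symbol was that gene's. Of the 9 genes, 8 had a named probe, with 14 probes among them, and 7 passed the filter on dim probes and were tested among 13514 genes. KDM5A had no probe under its symbol and was not analysed here, and PROM1 was above background on 0 of 12 arrays.

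The 12 samples of total RNA formed 4 groups of 3 arrays. The first group was PC9 with DMSO, and the second was PC9 with gefitinib at 0.5 µM. The third was PC9 in co-culture with MRC-5, a line of human lung fibroblasts, without gefitinib, and the fourth was that co-culture with gefitinib at 0.5 µM. Gefitinib was given after 24 h. Cells were then washed and kept for 48 h in EMEM with 10% FCS, and in co-culture the MRC-5 cells sat behind a transwell insert with pores of 1 µm. All samples carry this same text. It leaves unsaid whether the drug stayed on the cells while they were co-cultured, in which medium PC9 alone were kept, or whether the co-culture without gefitinib received DMSO. All 6 co-culture titles, and 0 of the 6 others, end in WH, so whatever WH marks and the co-culture cannot be told apart. Nothing in the labels says that the 3 samples of a group came from separate cultures, so the p-values measure the spread between these samples, which may be technical.

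Persisters are the few cells of a sensitive tumour line that live through a drug without a new resistance mutation, in a state that is lost when the drug is taken away. The state was first described in PC9, where the H3K4 demethylase KDM5A and signalling through the IGF1 receptor were tied to it. Surface proteins used to mark stem-like tumour cells, among them CD24, CD44 and CD133, the product of PROM1, and the activity of aldehyde dehydrogenases have been used to follow such cells. GPX4, which reduces lipid peroxides and so blocks ferroptosis, is an enzyme on which persisters have been found to depend.

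Each array had 20917 to 22820 probes above background, which here means a deposited detection p-value under 0.05, and the mean signal ran from 370.9 to 443.8 intensity units. Arrays of a group correlated across genes at 0.9886 to 0.9909. Of 10 epithelial markers, 8 were above background on all arrays, while NKX2-1, which marks the lung lineage, was above it on 0 arrays and SFTPB on 1. The log2 levels given here are background-corrected and quantile-normalized. Levels of different genes are not set against each other, because each probe has its own response.

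Gefitinib shifted most of the markers in PC9 grown alone. Of the 7 tested markers 5 rose and 1 fell, while the remaining one, KDM6B, did not pass the threshold (adjusted p under 0.05, limma with Benjamini-Hochberg adjustment over all genes). Gefitinib moved a large share of all genes too: 40.8% of the 13514 genes passed the same threshold, with 21.1% higher and 19.7% lower. The median log2 change of the 7 markers was 0.78, and that of all genes was 0.0028. In co-culture, 6 of the 7 rose with gefitinib and 1 fell, against 20.1% of all genes called, with 10.9% higher and 9.17% lower. The median was 0.60 for the markers and -0.011 for all genes.

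**Figure D1:**
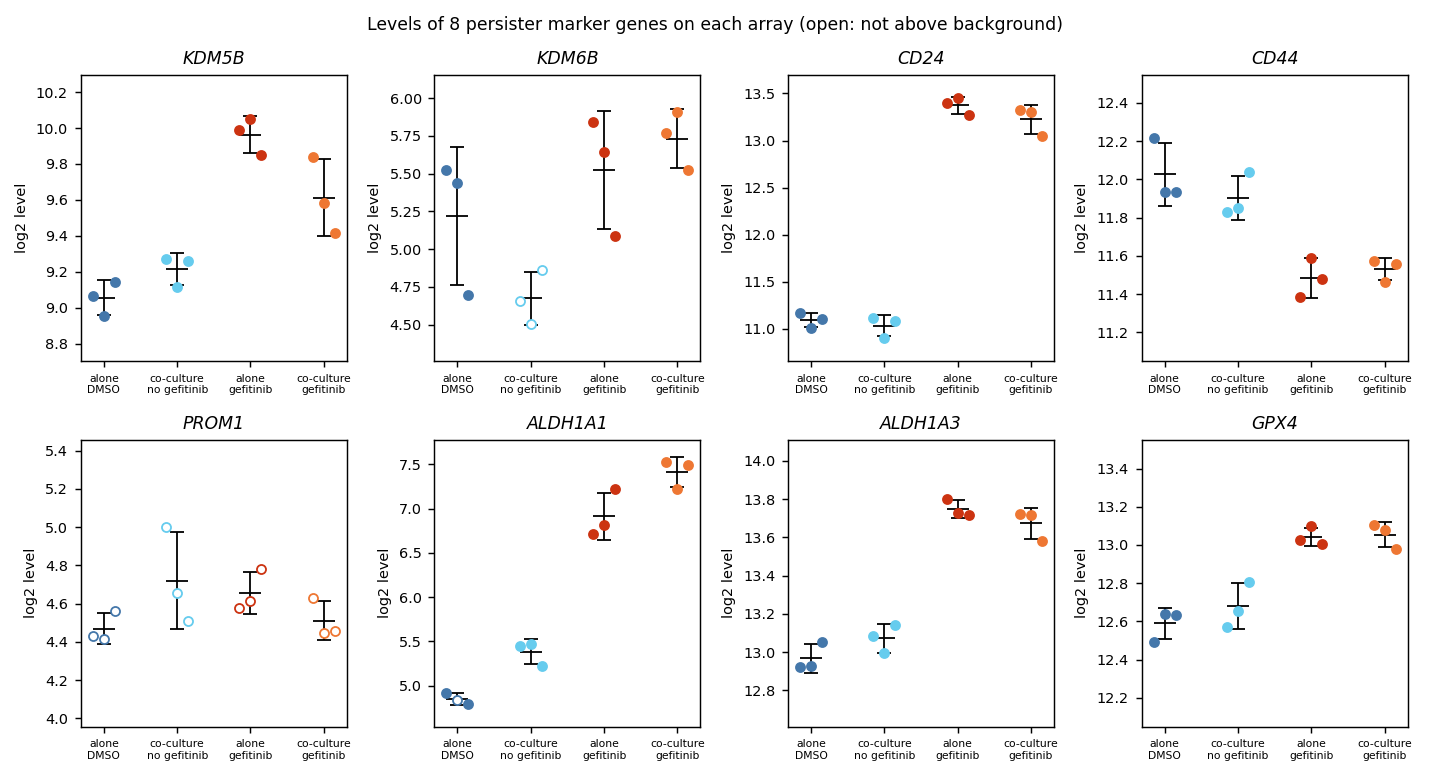
Log2 levels of the 8 marker genes with a probe, 1 panel per gene, on each of the 12 arrays in 4 groups of 3. Points are arrays, open where the probe was not above background, and bars give the mean and SD of each group. CD24 and ALDH1A1 stood apart between the groups with and without gefitinib, CD44 was lower with gefitinib, and PROM1 was not above background on any array.

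The surface markers came apart, with CD24 higher and CD44 lower. CD24 encodes a small, heavily glycosylated protein held in the membrane by a lipid anchor. Its log2 level was 11.17, 11.01 and 11.11 on the 3 arrays with DMSO, and 13.40, 13.45 and 13.27 with gefitinib alone. In co-culture it was 11.12, 10.91 and 11.08 without gefitinib, and 13.32, 13.31 and 13.05 with it. On this probe, the one used for the gene, all 6 arrays with gefitinib lay above all 6 without it. At either drug state its alone and co-culture arrays overlapped. CD24 rose with gefitinib by 2.28 ± 0.10 (log2, SE) in PC9 alone, a 4.85-fold change (adjusted p = 4.14e-08), and by 2.19 ± 0.10 in co-culture (adjusted p = 1.79e-07). A second CD24 probe rose by 3.02 ± 0.17 and 2.62 ± 0.17 in the same pair of comparisons, in a fit over all 25510 passing probes, of which 30.5% and 12.8% were called. Under gefitinib this second probe was lower in co-culture with no overlap of the groups. Its log2 difference there was -0.54 ± 0.17 and did not pass (adjusted p = 0.0781). In raw signal, the first probe went from a mean of 2271 ± 273 (SD, n = 3) with DMSO to 9973 ± 255 with gefitinib alone. RefSeq lists 5 pseudogenes of CD24, CD24P1 to CD24P5, and transcripts of near-identical copies could add to the signal of its probes.

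CD44 encodes the main receptor for hyaluronan, a long sugar polymer of the matrix around cells. Its log2 level was 12.21, 11.93 and 11.93 with DMSO, and 11.38, 11.59 and 11.48 with gefitinib alone. In co-culture it was 11.83, 11.85 and 12.04 without gefitinib, and 11.57, 11.46 and 11.56 with it. The 6 arrays with gefitinib all lay below the 6 without it. CD44 fell by 0.54 ± 0.11 on the log2 scale with gefitinib in PC9 alone (1.46-fold, adjusted p = 0.00163) and by 0.37 ± 0.11 in co-culture (adjusted p = 0.0292). All 3 CD44 probes fell in PC9 alone, by 0.49 to 0.73, with adjusted p-values of 0.0034 to 0.0269 among the passing probes. In co-culture the 3 probes had log2 changes of -0.38, -0.37 and -0.35, and their adjusted p-values among all probes were 0.232, 0.0541 and 0.168. The fall in co-culture lost its call with median scaling, where the log2 change was -0.27 (adjusted p = 0.323), and with the replicate number as a block (adjusted p = 0.0553). It also lost it when any one of the 3 arrays of co-culture with gefitinib, or the second or the third array of co-culture without it, was left out (adjusted p from 0.0532 to 0.106).

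PROM1, whose product CD133 sits on membrane protrusions, gave raw signals from 84.9 to 106.3 over the 12 arrays. In PC9 alone the signal averaged 89.1 ± 5.6 (SD, n = 3) without and 97.0 ± 4.4 with gefitinib, and in co-culture it averaged 99.8 ± 6.1 without and 94.7 ± 3.8 with the drug. The background fitted for the arrays had means of 92.4 to 98.3, so the probe was not measured above it and no change was tested.

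Both aldehyde dehydrogenase markers rose with gefitinib. ALDH1A1 and ALDH1A3 oxidise retinaldehyde to retinoic acid, and they clear aldehydes that arise from oxidised lipids. The ALDH1A1 probe with the higher mean had log2 levels of 4.92, 4.84 and 4.79 with DMSO, where 2 of 3 arrays were above background, and 6.71, 6.82 and 7.22 with gefitinib alone. In co-culture it had 5.45, 5.48 and 5.22 without gefitinib, and 7.53, 7.22 and 7.49 with it. The 4 group means thus stood in the order DMSO, co-culture, gefitinib, and co-culture with gefitinib, and no 2 groups overlapped, although the third array with gefitinib alone and the second of co-culture with gefitinib were both at 7.22. ALDH1A1 rose by 2.07 ± 0.14 in PC9 alone (4.19-fold, adjusted p = 5.10e-07) and by 2.03 ± 0.14 in co-culture (adjusted p = 2.05e-06). Signals were low: the mean raw signal was 103.8 ± 2.5 (SD, n = 3) with DMSO and 196.9 ± 25.3 with gefitinib alone. Without background correction the changes were 0.93 and 1.05 on the log2 scale, and both passed the threshold.

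ALDH1A3 had log2 levels of 12.92, 12.92 and 13.05 with DMSO and 13.80, 13.73 and 13.72 with gefitinib alone. In co-culture the levels were 13.08, 12.99 and 13.14 without gefitinib, and 13.72, 13.72 and 13.58 with it. Arrays with and without gefitinib did not overlap. ALDH1A3 rose by 0.78 ± 0.09 in PC9 alone (1.72-fold, adjusted p = 2.19e-05) and by 0.60 ± 0.09 in co-culture (1.52-fold, adjusted p = 4.71e-04). A second probe gave 0.92 ± 0.10 and 0.65 ± 0.10, and both of its changes passed among the probes.

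The RefSeq promoter windows of CD24, ALDH1A1, ALDH1A3 and CD44 are shown because the first 3 genes rose together while CD44 fell. Each runs from 250 bases before to 50 bases after a gene start on GRCh38.p14, 5′ to 3′ on the gene's strand, and all 9 marker genes were found in that table. The windows are chr6:106975578-106975877 (minus strand) for CD24, where the table lists 3 starts and the first is shown, and chr9:72953004-72953303 (minus strand) for ALDH1A1. Those of ALDH1A3 and CD44 are chr15:100879581-100879880 and chr11:35138921-35139220, both on the plus strand. Capitals mark GC boxes (GGGCGG on either strand) and CCAAT boxes (CCAAT on either strand), and overlapping GC boxes run together.
CD24: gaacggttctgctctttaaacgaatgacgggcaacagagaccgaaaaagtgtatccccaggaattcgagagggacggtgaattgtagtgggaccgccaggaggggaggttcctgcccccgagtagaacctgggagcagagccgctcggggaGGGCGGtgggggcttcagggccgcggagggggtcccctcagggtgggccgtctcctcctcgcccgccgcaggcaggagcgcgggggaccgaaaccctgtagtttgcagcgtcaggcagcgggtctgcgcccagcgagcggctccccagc
ALDH1A1: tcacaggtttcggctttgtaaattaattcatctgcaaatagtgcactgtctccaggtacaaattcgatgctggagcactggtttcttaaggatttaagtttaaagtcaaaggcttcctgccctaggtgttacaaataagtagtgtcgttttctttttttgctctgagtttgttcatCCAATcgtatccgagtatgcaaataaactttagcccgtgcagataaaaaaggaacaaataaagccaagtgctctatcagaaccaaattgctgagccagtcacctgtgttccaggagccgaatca
ALDH1A3: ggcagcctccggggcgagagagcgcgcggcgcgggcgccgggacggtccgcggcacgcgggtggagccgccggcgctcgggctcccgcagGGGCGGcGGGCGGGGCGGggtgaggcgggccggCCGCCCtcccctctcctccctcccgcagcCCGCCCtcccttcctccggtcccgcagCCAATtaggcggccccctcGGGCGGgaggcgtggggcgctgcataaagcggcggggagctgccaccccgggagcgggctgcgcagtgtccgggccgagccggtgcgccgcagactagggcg
CD44: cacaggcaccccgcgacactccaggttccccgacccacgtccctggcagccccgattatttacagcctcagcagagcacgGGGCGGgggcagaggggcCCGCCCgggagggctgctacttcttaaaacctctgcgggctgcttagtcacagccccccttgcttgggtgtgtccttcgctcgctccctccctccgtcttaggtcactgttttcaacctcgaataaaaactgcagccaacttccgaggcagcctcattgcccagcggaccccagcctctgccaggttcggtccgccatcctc

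These windows were unlike in composition, with 66.7% G and C for CD24, 40.3% for ALDH1A1, 81.7% for ALDH1A3 and 63.3% for CD44. A CCAAT box lay 74 bases before the start in ALDH1A1 and 71 bases before it in ALDH1A3, and 34.6% of the 35116 promoters in the table hold one. GC boxes, present in 45% of promoters, numbered 6 in ALDH1A3, 2 in CD44, 1 in CD24 and 0 in ALDH1A1. On both strands, TATAAA (11.5% of promoters), the AP-1 motif TGANTCA (7.71%) and the STAT motif TTCNNNGAA (7.66%) had no match in these 4 windows. These matches are a description of the letters only.

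The histone demethylase markers responded less evenly. KDM5B removes methyl groups from lysine 4 of histone H3, a mark of active promoters. Its log2 level was 9.07, 8.95 and 9.14 with DMSO, and 9.99, 10.05 and 9.85 with gefitinib alone. In co-culture it was 9.27, 9.11 and 9.26 without gefitinib, and 9.84, 9.58 and 9.41 with it. The groups with gefitinib lay above those without it, and co-culture with gefitinib lay between PC9 alone with gefitinib and the untreated groups with no overlap. KDM5B rose with gefitinib by 0.91 ± 0.12 in PC9 alone (1.88-fold, adjusted p = 7.46e-05) and by 0.40 ± 0.12 in co-culture (1.32-fold, adjusted p = 0.0332). The difference between both effects was -0.51 ± 0.17, with an adjusted p of 0.0887. The call in co-culture was lost when the fit held only the compared groups (adjusted p = 0.0846) and in the fit over all passing probes (adjusted p = 0.0579). It was also lost when any one of the 3 arrays of co-culture without gefitinib, or the first or second with it, was left out (adjusted p from 0.0599 to 0.126).

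KDM6B removes methyl groups from lysine 27 of histone H3, the mark laid down by EZH2. Its probe was close to background, with log2 levels of 5.52, 5.44 and 4.70 with DMSO and 5.84, 5.64 and 5.08 with gefitinib alone. In co-culture it was above background on 0 of 3 arrays without gefitinib, and on all 3 with it, where its levels were 5.77, 5.91 and 5.52. PC9 alone with and without gefitinib overlapped, with a change of 0.30 ± 0.24 (adjusted p = 0.344) and a 95% interval of -0.22 to 0.82. In co-culture KDM6B was at least 2.04-fold higher with gefitinib (adjusted p = 0.00809), a bound on the background-corrected scale, since the untreated group had only a limit. The size depends on that correction: without it, and with the authors' normalized values, the log2 change was 0.42, and both passed the threshold. Its raw signal averaged 99.2 ± 7.9 (SD, n = 3) without and 140.0 ± 8.6 with gefitinib in co-culture.

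GPX4 rose slightly. Its log2 level was 12.49, 12.64 and 12.64 with DMSO, and 13.024, 13.097 and 13.004 with gefitinib alone. In co-culture it was 12.57, 12.65 and 12.81 without gefitinib, and 13.11, 13.08 and 12.98 with it. On this probe, the one used for the gene, all arrays with gefitinib lay above all without it. At either drug state its alone and co-culture groups overlapped. GPX4 rose by 0.45 ± 0.09 in PC9 alone (1.37-fold, adjusted p = 0.00193) and by 0.38 ± 0.09 in co-culture (1.30-fold, adjusted p = 0.0129), and a second probe gave 0.58 ± 0.09 and 0.36 ± 0.09. The call in PC9 alone was lost with median scaling, where the log2 change was 0.20 (adjusted p = 0.310), and that in co-culture without the first array of the untreated co-culture (adjusted p = 0.0556).

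**Figure D2:**
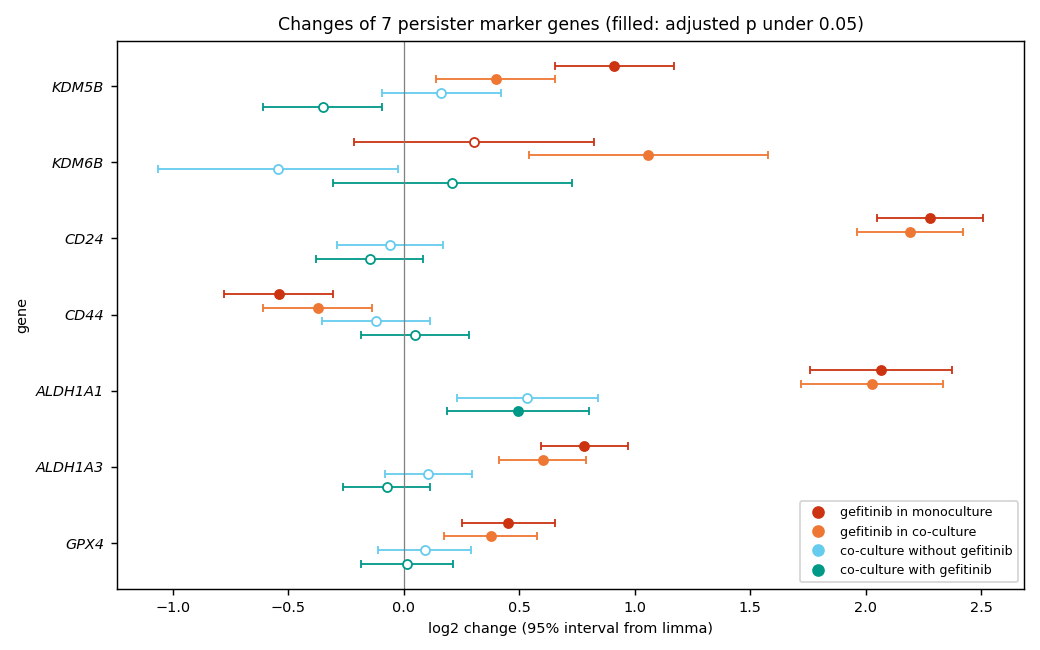
Log2 change of the 7 tested markers in 4 comparisons, with 95% intervals from limma; filled points passed the adjusted threshold. The gefitinib effects, 2 per gene, lie to the right of 0 for all markers but CD44, and the co-culture effects lie near 0 apart from those of ALDH1A1, KDM5B and KDM6B.

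Co-culture with MRC-5 in the absence of gefitinib moved 0 of the 7 tested markers past the threshold by limma, and 0.355% of all genes were called. By unadjusted p-value, 2 of the 7 were under 0.05, ALDH1A1 and KDM6B, against 11.8% of all genes. ALDH1A1 was higher by 0.53 ± 0.14 on the log2 scale, with no overlap of the groups, and its adjusted p was 0.145. KDM6B was not measured above background in the co-culture group, so its p-value rests on a limit. With that limit, the bound on its group mean was 1.43-fold lower there, on the background-corrected scale. The arrays of both groups overlapped and the adjusted p was 0.401, so no difference was called. On the probes used for the genes, the other 5 had log2 differences between -0.12 and 0.16. Their 95% intervals together ran from -0.36 to 0.42.

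Under gefitinib, ALDH1A1 was the marker called between co-culture and PC9 alone, against 13.5% of all genes called and 7.1% called higher. It was higher in co-culture by 0.49 ± 0.14 (1.41-fold, adjusted p = 0.0380). This call was lost with no filter (adjusted p = 0.0526), with the replicate number as a block (adjusted p = 0.0657) and with only the compared groups (adjusted p = 0.102). In the fit over all passing probes it was lost too (adjusted p = 0.0631). It was also lost when any one of 7 arrays was left out: the second or the third with DMSO, the first or second with gefitinib alone, the first of co-culture, or the first or the third of co-culture with gefitinib (adjusted p from 0.0502 to 0.133). KDM5B was lower in co-culture with no overlap of the groups, by a log2 difference of -0.35 ± 0.12, and its adjusted p was 0.0741. Without the first array of co-culture with gefitinib KDM5B passed, at -0.46 (adjusted p = 0.0237). The differences of the other 5 ran from -0.15 to 0.21 on the probes used for the genes. The second probes of CD24 and ALDH1A3 were lower in co-culture with no overlap of the groups. Their log2 differences were -0.54 ± 0.17 and -0.35 ± 0.10, and neither passed among all probes (adjusted p = 0.0781 and 0.0607). The difference between both gefitinib effects passed for 0 of the 7 by limma and for 7.27% of all genes, and KDM5B had an unadjusted p-value of 0.0101, with 22.6% of all genes under 0.05 unadjusted. KDM6B was also under it, at 0.0445, but that fit uses the co-culture group in which KDM6B was not measured above background. Without the first array of co-culture with gefitinib the KDM5B difference passed, at -0.63 (adjusted p = 0.0343). Each gefitinib comparison shares arrays with each co-culture comparison, and all of them share one estimate of the spread, so they are not independent of each other.

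The probes of ALDH1A1 did not behave alike. The second one had raw signals of 91.0, 89.7 and 91.6 with DMSO, below background on all 3 arrays, and 124.4, 129.8 and 123.9 with gefitinib alone. In co-culture the signals were 91.7, 107.5 and 105.9 without gefitinib, and 208.4, 219.9 and 235.4 with it. The 3 arrays of co-culture with gefitinib stood clear of all others. Since the DMSO group had only a limit, its rise in PC9 alone was at least 2.03-fold on the background-corrected scale. In co-culture, where 1 of 3 untreated arrays was above background, it rose by 2.21 ± 0.12 on the log2 scale. The fitted difference between both effects, 1.09 (adjusted p = 0.0108 over all probes, of which 3.36% were called), rests on the unmeasured DMSO group and is not an exact value. Under gefitinib, where all 6 arrays were above background, it was higher in co-culture by 1.34 ± 0.12 (adjusted p = 1.41e-04), against 7.64% of probes called. The first probe gave a difference between both effects of -0.04 ± 0.20 (adjusted p = 0.948) in the same fit. Under gefitinib the first probe was higher in co-culture by 0.49 ± 0.14 and did not pass in that fit (adjusted p = 0.0631).

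**Figure D3:**
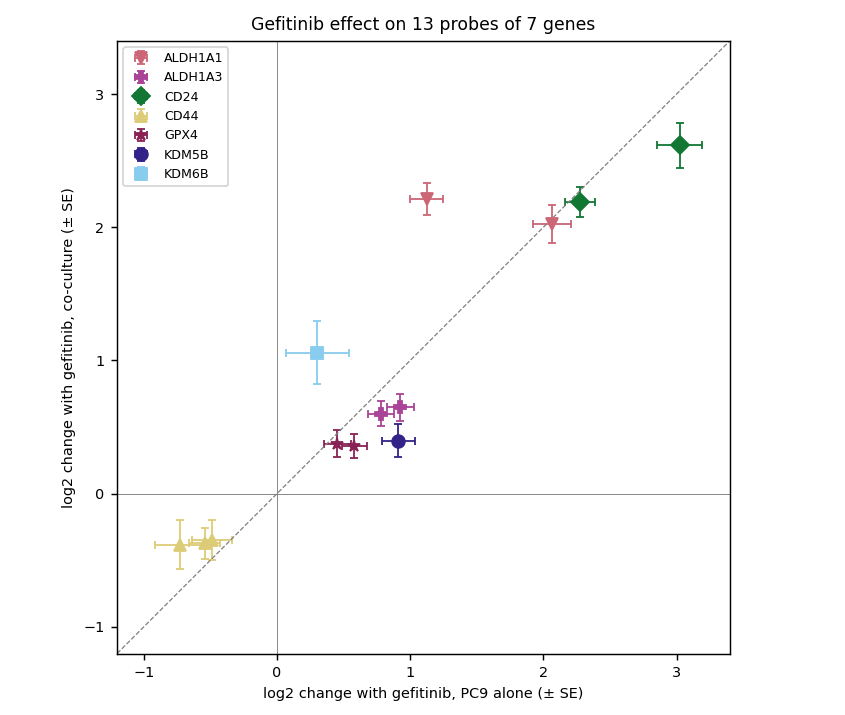
Log2 change with gefitinib in PC9 alone (x axis) against that in co-culture (y axis) for the 13 passing probes of the 7 tested markers, with SE; the dashed line marks equal change. The probes of CD44, ALDH1A3 and GPX4 lie near their partners. The CD24 probes lie apart from each other, at 2.28 and 2.19 and at 3.02 and 2.62. One ALDH1A1 probe, at 1.12 (a fitted value against a DMSO group below background) and 2.21, lies above the line. The other, at 2.07 and 2.03, lies on it.

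Because PC9 and MRC-5 shared a well, markers of fibroblasts were read beside the co-culture results. Of 18 fibroblast markers, 6 were above background on all 3 arrays of every group, PC9 alone included. COL3A1, LUM, PDGFRB and THY1 were above background on 0 of 12 arrays. COL6A3 was above it on 1 array of co-culture and 2 of co-culture with gefitinib, FBN1 on 1 and 1, and FAP on 0 and 1. COL6A3, FBN1 and FAP were above it on 0 arrays of PC9 alone. DCN was above it on 1 array of each group of PC9 alone, 0 of co-culture and 2 of co-culture with gefitinib. POSTN and COL5A2 were each above it on 1 array of PC9 alone and 0 of co-culture. PDGFRA was above it on 1 array with DMSO, 2 with gefitinib alone, 1 of co-culture and 0 of co-culture with gefitinib. For COL1A2 these counts were 1, 1, 2 and 1. The summed raw signal of the 18 genes ran from 6453 to 8366 with DMSO and from 6672 to 8160 with gefitinib alone. In co-culture it ran from 8225 to 9773 without gefitinib and from 7118 to 8505 with it. S100A4 made up most of this sum. Its mean log2 level was 12.42 with DMSO, 12.12 with gefitinib alone, and 12.78 and 12.10 in co-culture without and with the drug. No other tested gene of the list had a group mean above 9.37, that of MFAP5 with gefitinib alone. Without gefitinib the S100A4 arrays did not overlap, at 12.22 to 12.61 with DMSO and 12.76 to 12.79 in co-culture, but S100A4 was not called higher. Because S100A4 was bright in PC9 alone too, the sum cannot show how much fibroblast RNA was present. The SD of the background fitted to each array ran from 7.14 to 15.6 intensity units, with the highest value on the second array of co-culture without gefitinib, and its part in these results was not tested. In RNA from whole cultures, fewer cells carrying a transcript and less of it in each cell cannot be told apart.

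Of the enzymes around the histone demethylase markers, 37 of 40 listed genes were tested. With gefitinib alone 6 rose and 7 fell, and the list's median log2 change was 0.053. The share called was 35.1%, against 40.8% of all genes. The second H3K27 demethylase, KDM6A, rose by 0.85 ± 0.16, and the enzymes KDM4B and KMT2A rose by 0.73 ± 0.20 and 0.71 ± 0.15. The Polycomb subunits EZH2, the H3K27 methyltransferase, and EED, which binds that mark, fell by 1.17 ± 0.14 and 0.98 ± 0.15 on the log2 scale, and the histone-binding protein RBBP7 fell by 0.60 ± 0.09. HDAC1, a histone deacetylase, fell by 0.36 ± 0.10, and KDM5C, a close relative of KDM5B, had a log2 change of 0.40 ± 0.18 (adjusted p = 0.0964). In co-culture 3 of the 37 rose and 3 fell with gefitinib (16.2%, against 20.1% of all genes), with a median of -0.035. There KDM6A rose by 0.64 ± 0.16, and KDM1A, the first demethylase described, fell by 0.53 ± 0.08. EZH2 did not pass in co-culture (-0.16 ± 0.14, adjusted p = 0.478), and the difference between its effects did, at 1.02 ± 0.19 (adjusted p = 0.0118). HDAC1 had -0.21 ± 0.10 (adjusted p = 0.184) and KDM5C -0.26 ± 0.18 (adjusted p = 0.353) in co-culture, while RBBP7 and HDAC3 fell by 0.30 ± 0.09 and 0.27 ± 0.09.

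All 19 listed aldehyde dehydrogenases were tested, and 11 rose and 1 fell with gefitinib alone (63.2%, against 40.8% of all genes), with a median log2 change of 0.39. ALDH3B2 and ALDH3B1, which act on fatty aldehydes, rose by 2.29 ± 0.18 and 1.62 ± 0.12. ALDH4A1, a mitochondrial enzyme of proline breakdown, rose by 1.53 ± 0.16, while ALDH9A1 fell by 0.52 ± 0.10. ALDH1A2, another retinaldehyde dehydrogenase, was below background on all 3 DMSO arrays and at least 1.25-fold higher with gefitinib (adjusted p = 0.0380), and ALDH3A1 rose by 0.39 ± 0.11. ALDH1B1 (0.31 ± 0.14, adjusted p = 0.110) and ALDH2 (-0.19 ± 0.11, adjusted p = 0.170) did not pass. In co-culture 8 rose and 1 fell (47.4%, against 20.1%), with a median of 0.29. There ALDH3B2 rose by 2.21 ± 0.18, ALDH4A1 by 1.12 ± 0.16, ALDH3B1 by 0.80 ± 0.12 and ALDH1A2 by 0.51 ± 0.16, and ALDH1L1 fell by 0.55 ± 0.17. In co-culture without gefitinib ALDH1A2 was above background on 1 of 3 arrays, so the size of its rise is not exact. ALDH1B1, ALDH2 and ALDH3A1 had log2 changes of 0.29 ± 0.14, -0.29 ± 0.11 and -0.08 ± 0.11, and they did not pass.

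Of 24 genes of retinoic acid metabolism and its receptors, 20 were tested, the ALDH1A genes among them. With gefitinib alone 11 rose and 5 fell, and in co-culture 6 rose and 2 fell, with medians of 0.37 and 0.12. These were 80% and 40% of the list, against 40.8% and 20.1% of all genes. RARRES1, a gene that retinoic acid induces, rose by 2.66 ± 0.12 and 1.93 ± 0.12. CYP26A1, which breaks retinoic acid down, rose by 1.82 ± 0.25 with gefitinib alone, and STRA6, a retinol transporter, rose by 0.99 ± 0.17. With DMSO, CYP26A1 was above background on 1 of 3 arrays, so the size of its rise is not exact. TGM2, a transglutaminase that retinoic acid also induces, fell by 3.52 ± 0.11 alone and by 1.12 ± 0.11 in co-culture. FABP5, a carrier of retinoic acid and fatty acids, fell by 1.49 ± 0.10 and 0.31 ± 0.10, and CYP26B1 fell by 1.01 ± 0.23 alone.

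GPX4 stood among 34 tested genes of glutathione and lipid peroxide defence, of 42 listed. With gefitinib alone 9 rose and 3 fell, and in co-culture 8 rose and 3 fell, with medians of 0.12 and 0.15. The shares called were 35.3% and 32.4%, against 40.8% and 20.1% over all genes. The iron exporter SLC40A1 rose by 2.37 ± 0.20 and 1.47 ± 0.20, and the polyamine enzyme SAT1 by 1.76 ± 0.10 and 1.42 ± 0.10. CTH, which makes cysteine from cystathionine, rose by 1.41 ± 0.14 alone. CBS, which makes cystathionine, fell by 0.47 ± 0.09, and KEAP1, the brake on NRF2, by 0.25 ± 0.09. SLC7A11, the cystine importer that feeds glutathione synthesis, fell by 0.41 ± 0.11 alone and had -0.25 ± 0.11 in co-culture (adjusted p = 0.153). Its partner SLC3A2 rose by 0.62 ± 0.10 in co-culture, where GPX3, LPCAT3 and GSS fell by 0.43, 0.39 and 0.34.

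Other glutathione peroxidases differed in their response. GPX8, a peroxidase of the endoplasmic reticulum, rose by 0.50 ± 0.09 alone and 0.43 ± 0.09 in co-culture. GPX1 had 0.09 ± 0.09 and 0.15 ± 0.09, and GPX2 had 0.12 ± 0.09 and 0.08 ± 0.09, none past the threshold. AIFM2, which protects lipids without glutathione, had -0.04 ± 0.09 and -0.14 ± 0.09, and neither passed. ACSL4, which makes the phospholipids that ferroptosis attacks, had 0.26 ± 0.11 alone (adjusted p = 0.0853) and rose by 0.46 ± 0.11 in co-culture (adjusted p = 0.0109).

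GPX4 is a selenoprotein, and 23 genes of selenoproteins and their synthesis were all tested, with 5 higher and 5 lower with gefitinib alone and 5 higher and 1 lower in co-culture. The list's medians were 0.067 and 0.033, and 43.5% and 26.1% of it were called, against 40.8% and 20.1% of all genes. SELENOM rose by 1.75 ± 0.13 and 1.26 ± 0.13, and SELENOP, the selenium carrier of plasma, by 1.17 ± 0.22 and 0.80 ± 0.22. In each group without gefitinib SELENOP was above background on 1 of 3 arrays, so the sizes of its rises are not exact. SELENOS rose by 0.44 ± 0.10 alone and SELENOH by 0.54 ± 0.16 in co-culture. LRP8, a receptor for SELENOP, fell by 1.31 ± 0.11 and 0.73 ± 0.11. SEPHS1 and SELENOT fell by 0.53 ± 0.09 and 0.34 ± 0.11 with gefitinib alone.

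**Figure D4:**
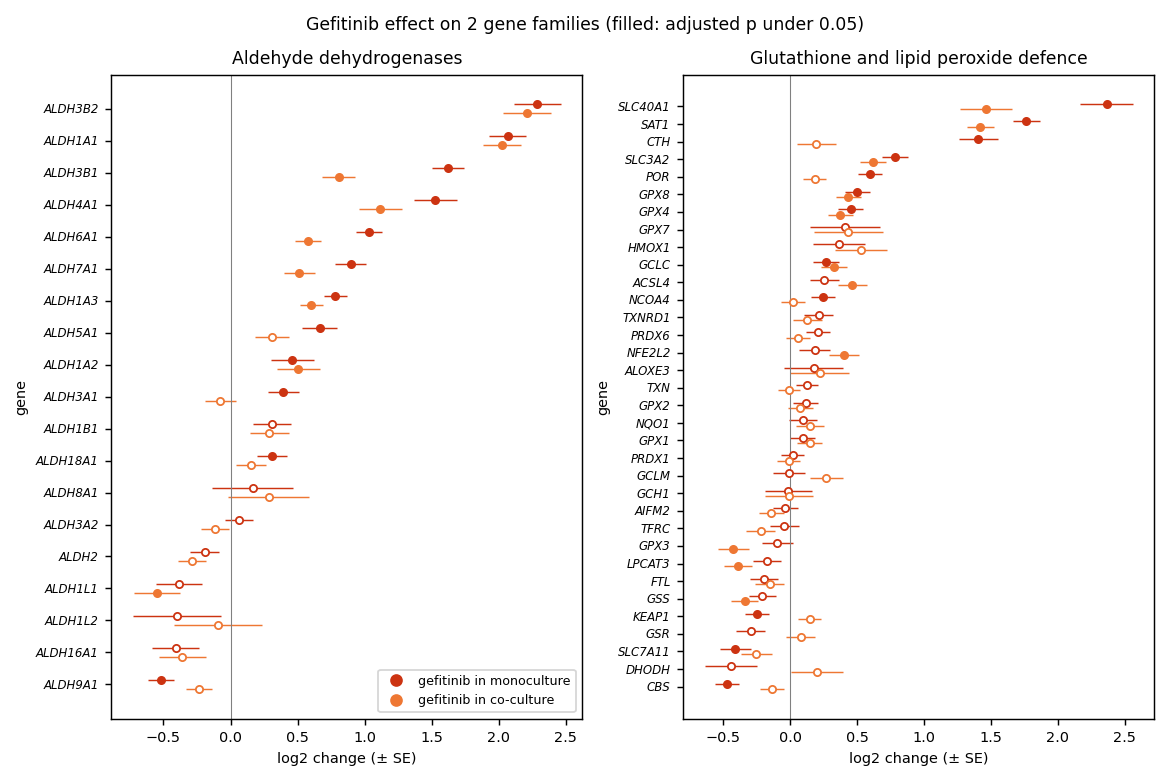
Log2 change (± SE) with gefitinib in PC9 alone and in co-culture for the 19 aldehyde dehydrogenases and the 34 tested genes of glutathione and lipid peroxide defence; filled points passed the adjusted threshold. ALDH3B2 and ALDH1A1 lead the first family, at 2.29 and 2.07 alone, and SLC40A1 and SAT1 the second, at 2.37 and 1.76.

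Around CD44, 17 of 26 listed genes of hyaluronan and CD44 partners were tested, and 3 rose and 4 fell both with gefitinib alone and in co-culture. That is 41.2% of the list in each comparison, against 40.8% of all genes alone and 20.1% in co-culture. The medians were -0.043 and -0.14. HAS3, a hyaluronan synthase, fell by 2.57 ± 0.10 and 1.57 ± 0.10, and HMMR, a hyaluronan-binding protein of the spindle, by 1.44 ± 0.09 and 0.81 ± 0.09. CEMIP, which breaks hyaluronan down, fell by 0.88 ± 0.16 and 1.05 ± 0.16, while CEMIP2 rose by 0.92 ± 0.10 and 0.54 ± 0.10. ADAM10, a protease that sheds CD44, rose by 0.98 ± 0.19 and 0.81 ± 0.19, HYAL2 rose by 0.44 ± 0.14 alone and SPP1 by 0.35 ± 0.10 in co-culture. ESRP1, a splicing factor of CD44, had -0.39 ± 0.20 and -0.36 ± 0.20, and neither passed. HAS2 did not pass the filter.

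Of 30 stem cell surface markers and pluripotency factors, 18 were tested, CD24 and CD44 among them. With gefitinib alone 3 rose and 6 fell, and in co-culture 2 rose and 4 fell, with medians of -0.048 and -0.053. Of the list, 50% and 33.3% were called, against 40.8% and 20.1% of all genes. CD47, which signals to macrophages not to engulf a cell, rose by 0.83 ± 0.12 and 0.65 ± 0.12, and ALCAM rose by 0.51 ± 0.11 alone. ITGA6, an integrin subunit, fell by 2.82 ± 0.17 and 1.61 ± 0.17, NT5E, the surface enzyme CD73, fell by 1.91 ± 0.11 and 0.96 ± 0.11, and ENG fell by 1.35 ± 0.12 and 0.39 ± 0.12. EPCAM fell by 0.33 ± 0.10 alone and had -0.25 ± 0.10 in co-culture (adjusted p = 0.0916).

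Of 10 genes of the IGF1 receptor axis, 9 were tested, with 3 higher and 2 lower with gefitinib alone, and 2 higher and 1 lower in co-culture. The medians were -0.054 and 0.15, and the shares called, 55.6% and 33.3%, compare with 40.8% and 20.1% of all genes. IGFBP5, a binding protein of IGF1, was below background on all DMSO arrays and at least 18.3-fold higher with gefitinib alone, and it rose by 2.92 ± 0.20 in co-culture. IGFBP3 rose by 2.38 ± 0.10 and 2.08 ± 0.10, and IGF2R rose by 0.56 ± 0.10 alone. The adaptors IRS1 and GRB10 fell by 0.54 ± 0.13 and 0.40 ± 0.10 alone, and GRB10 fell by 0.50 ± 0.10 in co-culture. The receptor gene IGF1R was below background on all 6 arrays without gefitinib. It was above background on 2 of 3 arrays with gefitinib alone and on all 3 of co-culture with gefitinib. The bounds on its group means were 1.28-fold and 1.17-fold higher with gefitinib, alone and in co-culture. Neither change passed (adjusted p = 0.0793 and 0.324).

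Of these neighbours, 1 was called between co-culture and PC9 alone without gefitinib, RARRES1, which was higher by 0.86 ± 0.12 (adjusted p = 0.0134). Among the close relatives of the markers, HAS3 had 0.50 ± 0.10 (adjusted p = 0.0684) and SLC7A11 -0.40 ± 0.11 (adjusted p = 0.187) in that comparison. Under gefitinib, the co-culture had higher TGM2 (2.43 ± 0.11), HAS3 (1.5 ± 0.10), ITGA6 (1.44 ± 0.17), NT5E (1.06 ± 0.11), ENG (0.97 ± 0.12), FABP5 (0.86 ± 0.10), EED (0.74 ± 0.15), EZH2 (0.70 ± 0.14), LRP8 (0.63 ± 0.11) and HMMR (0.45 ± 0.09) than PC9 alone. CBS (0.46 ± 0.09), RARA (0.44 ± 0.09), WDR5 (0.42 ± 0.08) and SEPHS1 (0.41 ± 0.09) were higher in the co-culture as well. The co-culture had lower IGFBP5 (-1.26 ± 0.20), CTH (-1.02 ± 0.14), CYP26A1 (-0.93 ± 0.25), ALDH3B1 (-0.51 ± 0.12), IGFBP3 (-0.47 ± 0.10), SLC3A2 (-0.44 ± 0.10), RDH10 (-0.40 ± 0.11) and ALDH6A1 (-0.32 ± 0.10). The calls of KEAP1 with gefitinib alone, of ALDH1A2, HDAC3, ALDH1L1, STRA6, FABP5 and ENG with gefitinib in co-culture, and of ALDH6A1 here were each lost in 11 to 16 of the 21 alternative settings. On the probes used for the genes, the markers CD24, CD44, ALDH1A3 and GPX4 had differences of -0.15, 0.05, -0.07 and 0.01 in the same comparison. Their other probes had -0.54 for CD24, 0.38 and 0.02 for CD44, -0.35 for ALDH1A3 and -0.04 for GPX4, none past the threshold.

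Patterns over the 12 arrays were compared by Pearson correlation for the 3 markers whose group means spanned at least 1 log2 unit, as a description with arrays in 4 groups. CD24 was most like PTGS2 (r = 0.9977), CYP27A1 (0.994) and PDZK1IP1 (0.9937). ALDH1A1 was most like SLPI (0.986), RARRES1 (0.9827) and PCDH7 (0.9791). KDM6B was most like PON2 (0.9065), PACC1 (0.8932) and ZNF805 (0.8919).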

How the data were processed

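Total RNA of 12 PC9 samples was hybridised to single-colour Illumina bead arrays. The deposited table gives each probe's signal as a linear intensity that was not normalized by the authors, per the file headers. Beside it stands a deposited detection p-value per probe, whose computation the labels and headers do not describe, and which did not follow the order of the signals strictly. A second deposited table holds normalized values on a linear intensity scale, and the authors' method for it was not found in the labels or headers. Each of its columns matched its own array best by rank correlation in 12 of 12 cases.

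Of 48107 probes, 5 lacked values. The others were corrected and normalized with neqc of limma 3.58.1 in R 4.3.3 (background from the detection p-values, offset of 16, quantile normalization, log2). A probe was kept if 3 or more of its 12 detection p-values were under 0.05. This held for 25510 probes, of which 7221 had no gene in the platform annotation. Each gene was read from its passing probe with the highest mean, giving 13514 genes. Group means were fitted with limma over 12 arrays (8 residual degrees of freedom), with 5 two-sided contrasts and Benjamini-Hochberg adjustment at 0.05. The SE is the moderated one, which pools the spread of all groups. Precision is limited by the 3 arrays per group. Where no array of a group was above background for any probe of a gene, the fold is a lower bound, set per array against the higher of the probe's own level and the lowest level above background. The fit was tested on simulated data.

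The markers and gene lists were chosen with earlier results of these data known. Named genes were all markers, a set of close relatives, and from each list up to 3 genes with the largest rise and 3 with the largest fall of the called genes with separate groups of arrays. The alternatives were no background correction, scaling to the median, use of the authors' normalized table, and dropping the filter. Others were a strict filter (p under 0.01 throughout one group of 3), averaging the probes of a gene, array weights, a fit of only the compared groups, a block by replicate number, and leaving out each array. Alternatives for single probes were chosen after seeing the data. Leukocyte markers were read too: of 7 with a probe, between 1 and 3 per group were above background on all its arrays.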

Additional observations from a re-analysis of the deposited data

Results flagged for a closer look

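Each result here is a gefitinib effect that differed between co-culture and PC9 alone by the fit's own test (co-culture effect minus the effect alone, log2, limma, adjusted p under 0.05). Groups of 3 arrays were not tested for single samples that stand apart.

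Among the markers, ALDH1A1 probe ILMN_2096372 had a fitted difference of 1.09, while the probe used for ALDH1A1 had -0.04. The first of these values is not exact, since that probe was above background on 0 of 3 DMSO arrays and its rise in PC9 alone, at least 2.03-fold, is a bound. The alternatives share the unmeasured group, so their values, from 0.52 upwards, add no support.

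Of the genes around the markers, those listed here were picked because their difference passed, so they show no general pattern, and CEMIP and GRB10, which fell in both comparisons, had differences of -0.17 and -0.10 that did not pass. Genes that fell with gefitinib alone and had a higher log2 change in co-culture were EZH2 (1.02), EED (0.86), WDR5 (0.46), TGM2 (2.41), FABP5 (1.18), HAS3 (1.00), HMMR (0.63), SEPHS1 (0.57), ITGA6 (1.21), ENG (0.96), NT5E (0.94) and the epithelial keratin KRT18 (1.04). Genes that rose alone and had a lower log2 change in co-culture were ALDH3B1 (-0.82), CYP26A1 (-1.33), RARRES1 (-0.73), CTH (-1.21), IGFBP5 (-1.28) and the epithelial mucin MUC1 (-1.21). IGFBP5 was above background on 0 of 3 DMSO arrays and CYP26A1 on 1 of 3, so their differences are not exact. The calls of WDR5 and CYP26A1 were lost in 14 and 12 of 20 alternatives. None of the 7 tested marker genes is in this group, and KDM5B had -0.51 (adjusted p = 0.0887).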

How the results depend on the processing

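No called marker change turned its direction under any alternative that was run. Counts of markers past the threshold, per direction, moved in these cases. Markers lower with gefitinib in co-culture numbered 1, and 0 with median scaling and with the replicate block, with a range of 0 to 1 over left-out arrays. Markers higher in co-culture under gefitinib numbered 1, and 0 with no filter, the replicate block or only the compared groups, with a range of 0 to 1 over left-out arrays. Markers lower there numbered 0, and 1 with no background correction, the authors' values or the strict filter (KDM5B), with a range of 0 to 1 over left-out arrays. For the difference between both effects, markers higher numbered 0, and 1 with the mean of a gene's probes. Markers lower numbered 0, and 1 with no background correction or the authors' values, with a range of 0 to 1 over left-out arrays. KDM5B passed for the difference with no background correction (adjusted p = 0.0295) and with the authors' values (adjusted p = 0.0291).

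Genes called between co-culture and PC9 alone without gefitinib numbered 48, and 124 with no background correction, 119 with the authors' values, 85 with the strict filter, 17 with median scaling, 19 with the replicate block and 3 with only the compared groups, with a range of 13 to 41 over left-out arrays. Genes called under gefitinib numbered 1820, with a range of 1094 to 1743 over left-out arrays. Genes called for the difference numbered 983, and 1475 with no background correction and 1663 with median scaling, with a range of 567 to 930 over left-out arrays. The causes were not tested. Over all genes the median became, with median scaling, -0.12 with gefitinib alone, 0.13 with gefitinib in co-culture, -0.10 and 0.19 for co-culture without and with gefitinib, and 0.29 for the difference. The share of higher genes among those called was then 33.0%, 83.8%, 35.3%, 91.1% and 95.1%, and the split of calls by direction rests on the scaling. CD44 moved with it to -0.82 with gefitinib alone.

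The replicate numbers did not pair the samples: same-numbered arrays deviated from their group means with correlations of -0.019 to 0.0389. With the number as a block, genes called with gefitinib numbered 5341 alone and 2467 in co-culture, CD44 in co-culture had an adjusted p of 0.0553, and ALDH1A1 under gefitinib had one of 0.0657. The slide as a block was not run, because the files used here give no slide.

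Dim probes limit the precision. With no background correction KDM6B in co-culture had 0.42 in place of 1.06, and with the authors' values 0.42. ALDH1A1 under gefitinib had 0.32 with no background correction, 0.75 with median scaling, 0.30 with the authors' values and 0.92 with the mean of its probes. Probes above background on all arrays lost calls too. The second GPX4 probe lost its call with median scaling, at 0.33 alone and 0.45 in co-culture. In co-culture it also lost it with only the compared groups, at 0.36. Its ranges over left-out arrays were 0.53 to 0.62 alone and 0.31 to 0.38 in co-culture. The second CD44 probe with gefitinib alone lost it with only the compared groups, at -0.49, with a range of -0.56 to -0.36 over left-out arrays.

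Signs turned for 21 of the alternative values of single markers and 64 of those of other named genes. In all of them but one, neither value passed the threshold. The exception is ALDH1A1 for the difference when its probes were averaged, at 0.52 (adjusted p = 0.0437). Other turned values with the mean of a gene's probes were ACSL4 -0.048 with gefitinib alone; GPX1 0.017 and EPCAM 0.015 for co-culture without gefitinib; GPX4 -0.012, ALDH1B1 0.18, GPX1 0.043 and GPX8 -0.12 for co-culture under gefitinib; and ALDH1B1 0.37 and EPCAM -0.037 for the difference. With median scaling GPX1 had -0.21 and GPX2 -0.14 with gefitinib alone, and EZH2 0.049, ALDH3A1 0.068 and AIFM2 0.096 in co-culture. With that scaling ALDH1A3 had -0.014 and GPX4 -0.024 for co-culture without gefitinib. Under gefitinib CD24 had 0.10, ALDH1A3 0.16, ALDH1B1 0.24, ALDH3A1 0.12, GPX1 0.17, GPX2 0.20, SLC7A11 0.027, AIFM2 0.043 and EPCAM 0.19. For the difference CD24 had 0.28, ALDH1A1 0.29, ALDH1A3 0.18, GPX4 0.28, KDM6A 0.16, ALDH1B1 0.39, ALDH2 0.28, GPX2 0.33, GPX8 0.32 and AIFM2 0.29. With no background correction and with the authors' values the difference was 0.12 and 0.11 for ALDH1A1, and -0.020 and -0.021 for ALDH1A2.

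Over left-out arrays, signs turned within these ranges. AIFM2 ran from -0.080 to 0.033 with gefitinib alone, and ALDH3A1 from -0.18 to 0.031 in co-culture. For co-culture without gefitinib, CD24 ran from -0.10 to 0.0025, HDAC1 from -0.12 to 0.026, ALDH1B1 from -0.10 to 0.053, GPX2 from -0.075 to 0.028, ACSL4 from -0.16 to 0.020 and IGF1R from -0.093 to 0.19. Under gefitinib, KDM6B ran from -0.0098 to 0.37, CD44 from -0.0028 to 0.10, GPX4 from -0.012 to 0.051 and ALDH1B1 from -0.13 to 0.11. For the difference, CD24 ran from -0.15 to 0.00058, ALDH1A1 from -0.14 to 0.11, ALDH1A2 from -0.071 to 0.23, ALDH1B1 from -0.12 to 0.12, GPX1 from -0.0033 to 0.13, GPX2 from -0.10 to 0.012 and ESRP1 from -0.16 to 0.25. Of 179 called changes of markers, their second probes and other named genes, 66 lost their call in some alternative and 12 in most of them.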

Other observations

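Gefitinib also moved epithelial genes that serve here as a check of the cell type. MUC1, a mucin of the luminal surface, rose by 3.12 ± 0.10 on the log2 scale in PC9 alone and by 1.90 ± 0.10 in co-culture, and it was higher by 1.07 ± 0.10 in co-culture without gefitinib (adjusted p = 0.00277). CDH1, the adhesion protein E-cadherin, rose by 1.06 ± 0.09 and 0.61 ± 0.09. KRT18 fell by 0.82 ± 0.14 in PC9 alone and KRT7 rose by 0.66 ± 0.09. Of the 8 tested epithelial markers 4 rose and 2 fell with gefitinib alone, and 2 rose and 0 fell in co-culture. These were 75% and 25% of the list, against 40.8% and 20.1% of all genes.

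Of 18 genes used as fibroblast markers 9 were tested, and with gefitinib alone 4 rose, 0 fell and 5 were not called, with a median log2 change of 0.066. In co-culture 3 rose and 1 fell with gefitinib, with a median of 0.50. The share called was 44.4% in each comparison, against 40.8% of all genes alone and 20.1% in co-culture. COL5A1, SPARC and MFAP5, above background on all arrays, rose by 2.20 ± 0.12, 1.42 ± 0.11 and 1.52 ± 0.14 with gefitinib alone. MFAP5 had a log2 difference of -0.79 ± 0.14 between co-culture and PC9 alone without gefitinib (adjusted p = 0.0398), a call that was lost in 13 of 21 alternatives.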
